A study of Mus musculus with 6 samples.

Results

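The genes described here are the insulin-like growth factor (IGF) axis and the imprinted RNA H19 in mouse NIH3T3 cells that carried the sirtuin SIRT7. The members were the ligands Igf1 and Igf2, H19, the receptors Igf1r and Igf2r, and the binding proteins Igfbp3, Igfbp4, Igfbp5, Igfbp6 and Igfbp7. They were found as every probe on the array, other than control spots, whose gene name was one of these 10 symbols. This gave 18 probes of 61307, under 10 of 50090 names, and each probe is described on its own. NIH3T3 is an immortal line of mouse embryo fibroblasts. Cells were transduced with a retrovirus (pCX4Neo vector) for GFP alone, the control group named GFP, or for a fusion of SIRT7 with GFP. All were selected with the same drug, plated out by dilution and grown in the same medium. From confluent SIRT7GFP cultures the long cells (group LT7) and the small cells (group ST7) were picked with cloning cylinders, and single cell clones were expanded. Each group had 2 arrays from different passages. The spread between arrays is therefore that between passages of a line, and what is particular to a clone and what is particular to SIRT7 cannot be told apart.

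IGF1 and IGF2 are secreted growth factors that signal through the tyrosine kinase IGF1R. IGF2R, the mannose 6-phosphate receptor, binds IGF2 and delivers it to lysosomes, and the IGF-binding proteins carry the ligands and control how much of them reaches the receptor. H19 is a non-coding RNA whose gene lies beside Igf2 on the same chromosome. In the mouse H19 is expressed from the maternal allele and Igf2 from the paternal allele, under an imprinted region between them that the protein CTCF binds. Both are abundant in the embryo and are usually low in adult tissue. Fibroblasts are a known source of IGF1, IGF2 and several binding proteins.

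The signal given for each array is the processed signal of the scanner software, with background subtracted and no scaling between arrays. The software also marks whether a spot is well above background. The 75th percentile of the signal over all probes was between 317 and 384 on the GFP and LT7 arrays but 16.3 and 17.1 on the ST7 arrays. The share of probes well above background was 53.5% to 57.5% in GFP, 47.4% to 47.5% in LT7 and 25.5% to 26.4% in ST7. LT7 replicate 1 was the only array of the second scan. The brighter probe of Sirt7, the overexpressed gene, had signals of 3125 and 2480 in GFP and of 3633 and 2782 in LT7, with an adjusted p of 0.47 for the difference (limma). On the arrays labelled ST7 it read 2.85 and 3.28, not well above background. The names LT7 and ST7 are therefore used for the libraries so labelled, and this reading limits every direction given for ST7. A rise of Sirt7 was not called in LT7 either, so its directions are those of the library so labelled. In the study, SIRT7GFP protein did not differ significantly between LT7 and ST7 by immunoblot, and it was nucleolar in both. Whether the Sirt7 probe reads the introduced cDNA is not stated. The 12 fibroblast markers were all well above background on both arrays in GFP and in LT7 but only 4 of them in ST7. Their summed signal was 406120 to 420048 in GFP, 456166 to 461804 in LT7 and 15069 to 16608 in ST7. Vim, the intermediate filament vimentin, read 14612 and 16192 in ST7, and the other 11 markers summed to 348500 to 361273 in GFP but 416 to 458 in ST7.

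The probes are 60 bases long. Those with the largest LT7 changes, and those of genes whose probes read apart in ST7, are shown in the sense printed in the scanner files, 5′ to 3′. The H19 probe is shown because it carries the higher values in LT7.
H19 P142196, all 60 bases: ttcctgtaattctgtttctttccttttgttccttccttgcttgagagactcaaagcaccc
The 3 Igf1 probes are shown because they carry the lower values in LT7.
Igf1 P536434, all 60 bases: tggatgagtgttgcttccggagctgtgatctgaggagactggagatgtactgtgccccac
Igf1 P147942, first 30 bases: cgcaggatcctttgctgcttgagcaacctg
Igf1 P351116, first 30 bases: tacttactcaatacctaggtcaaatgttga
The 3 Igf1r probes and the 2 Igfbp4 probes are shown because probes of the same gene differed on the ST7 arrays.
Igf1r P318365, first 30 bases: caacacttaatagcaacaggacactcgaga
Igf1r P474538, first 30 bases: gtagtcgttgacgaagctctggtttacaag
Igf1r P634111, first 30 bases: ctaggacttcttcatgggtctctcagttct
Igfbp4 P398971, all 60 bases: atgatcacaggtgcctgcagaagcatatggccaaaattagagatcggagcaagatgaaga
Igfbp4 P257502, first 30 bases: gagaagagaaacctcattcttggagtgaga
The letters of 2 probes of a gene never shared a run of more than 6 bases, so each reads a separate stretch. The accession of 16 of the 18 probes was found in a mouse RefSeq table (GRCm38.p6) under the same symbol. H19 P142196 and Igf1 P536434 were not listed there and keep the name of the array's annotation.

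**Figure D1:**
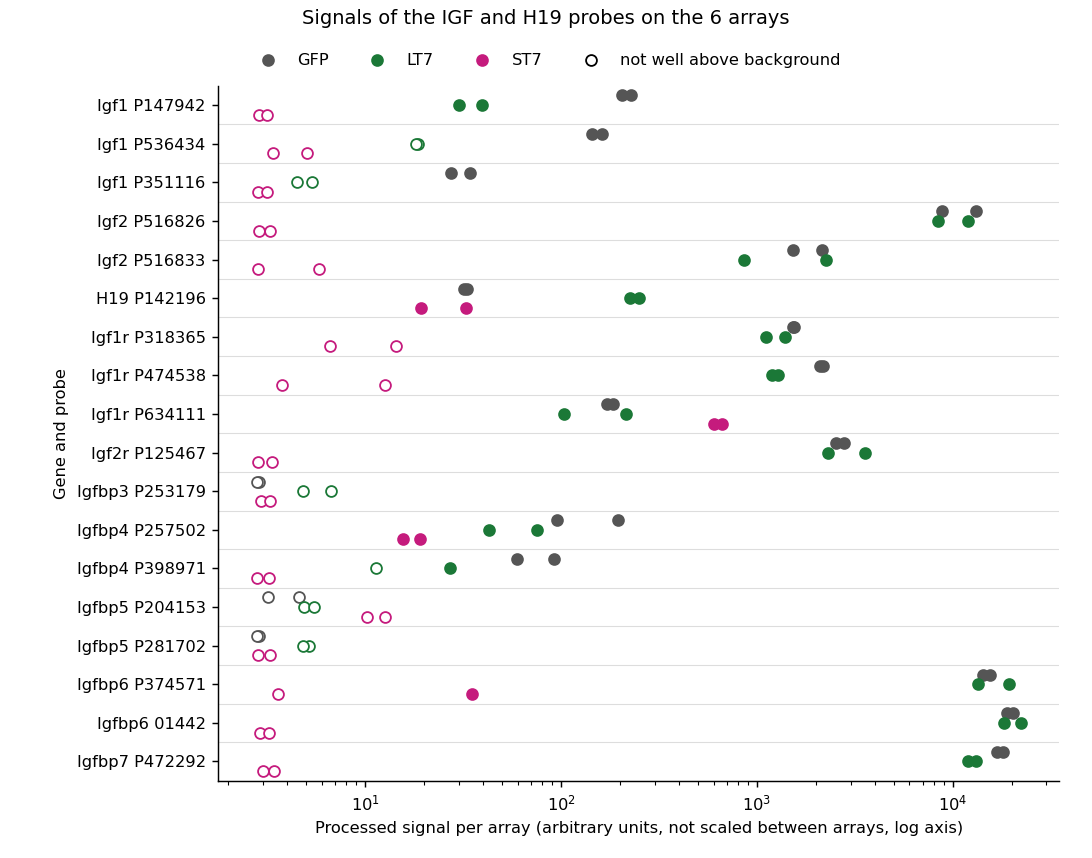
Processed signal of each probe on each of the 6 arrays, on a log axis and not scaled between arrays, with open circles where the spot was not well above background. The Igf1 circles of LT7 lie to the left of those of GFP, the H19 P142196 circles of LT7 lie to the right, and on the ST7 arrays most circles are open.

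In LT7 against GFP, the largest log2 changes among the members were lower Igf1, at all 3 of its probes, and higher H19, at the probe P142196. Of the Igf1 probes only P147942 was well above background in LT7, so the size of the others is not measured. For Igf1 the direction is opposite to the sign beside its name on the study's list of proliferation genes, if the values there are log2 ratios. On that list the names run in alphabetical order and the values in falling order. Pax6 and Notch1, which are also on the study's list of cell fate genes, have the opposite sign there. The pairing of names and values is thus uncertain, and the cause of the difference was not tested. The probes of Igf2, Igf1r, Igf2r, Igfbp6 and Igfbp7 had smaller changes, from -0.69 to 0.22, some with wide intervals, and none passed the test. Log2 changes are differences of log2 signals after subtraction of the array's own 75th percentile, and they were tested with limma over all probes with Benjamini-Hochberg adjustment at a threshold of 0.05. At that threshold 1 of the 18 probes was called, an Igf1 probe, where 0.176% of all probes were called, 0.0440% as higher and 0.132% as lower. At an unadjusted p under 0.05 there were 8 of 18 probes, against 27.2% of all probes. The groups did not overlap after scaling at 11 of 18 probes, against 53.0% of all probes. The fold rule of the study's methods, whose scale is read here as log2 ratios, was applied as at least 0.8 in every replicate and a mean over 1, with the signs turned for lower probes. It named 6 of 18 probes, against 5.92% of all probes. Upward these were H19 P142196 and Igfbp3 (2 of 18, against 2.89%), and downward the 3 Igf1 probes and Igfbp4 P398971 (4 of 18, against 3.02%). H19, Igf1 and Igfbp3 are on the list of proliferation genes, which the study drew from these arrays, so their differences are not independent evidence.

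Igf1 was measured on all GFP arrays. The signal of P147942 was 227 and 204 in GFP, 30.0 and 39.5 in LT7 but 2.86 and 3.14 in ST7. That of P536434 was 163 and 144 in GFP, 18.5 and 18.2 in LT7 but 5.04 and 3.38 in ST7. That of P351116 was 34.3 and 27.2 in GFP, 4.48 and 5.33 in LT7 but 2.85 and 3.16 in ST7. At each of the 3 probes both LT7 arrays lay below both GFP arrays. P147942 alone was well above background in LT7, and no Igf1 probe was in ST7. P351116 passed the test, at least 1.35-fold lower in LT7 with a change of -2.55 on the log2 scale (SE 0.22, adjusted p = 0.045). The lowest signals marked as well above background on the LT7 arrays, 20.0 and 22.3, were near the GFP signals of this probe. The change of P536434 was -2.96 (SE 0.27, adjusted p = 0.051), with LT7 at least 6.77-fold lower. P147942 had a measured change of -2.55 (SE 0.24, adjusted p = 0.053), or 5.85-fold lower. These adjusted p-values lie close to the threshold, and the call on P351116 was lost in all but 3 of 15 alternatives. With normexp background correction the changes of P147942 and P536434 were -1.43 and -1.31, both with an adjusted p of 0.0092, where their alternatives ranged up to 0.50 and 0.69. The same correction took P351116 to -0.39 with an adjusted p of 0.32.

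Igf2, the fetal growth factor, was bright in GFP and LT7 and differed little between them. P516826 read 13120 and 8778 in GFP, 8359 and 11975 in LT7 but 2.87 and 3.27 in ST7. P516833 read 2155 and 1533 in GFP, 854 and 2248 in LT7 but 2.82 and 5.81 in ST7. The GFP and LT7 values overlapped at both probes. The log2 change in LT7 was -0.00 (95% interval -0.74 to 0.73, adjusted p = 1.00) for P516826. For P516833 it was -0.29 (95% interval -1.788 to 1.202, adjusted p = 0.82), and LT7 replicate 1 gave the lowest of the 4 values. Without that array the 2 changes were 0.31 and 0.46.

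H19 at P142196 was well above background on every array. Its signal was 31.8 and 33.2 in GFP, 249 and 224 in LT7 but 32.8 and 19.2 in ST7. Both LT7 arrays lay far above the other 4 arrays, which lay close together. The log2 change in LT7 was 2.96 (SE 0.34, 95% interval 2.11 to 3.81), a level 7.79-fold that of GFP. It did not pass the threshold, with an adjusted p of 0.080 and an unadjusted p of 0.00025 (limma). Without LT7 replicate 1, which leaves the arrays of the first scan alone, it was 2.93. Over the 6 scalings it lay between 0.79 and 2.96. The adjusted p was 0.0083 with normexp, where the change was 1.78, and 0.041 with dim probes left out, among alternatives from 0.0083 to 0.67.

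Igf1r, the signalling receptor, and Igf2r, which clears IGF2, did not pass the test in LT7. P318365 of Igf1r read 1527 and 1550 in GFP and 1382 and 1107 in LT7, with a log2 change of -0.22 (95% interval -1.201 to 0.767). P474538 read 2164 and 2105 in GFP and 1198 and 1277 in LT7, with a change of -0.69 (95% interval -2.21 to 0.83). The estimate of its spread takes in the ST7 arrays, on which it read 12.6 and 3.77. With 2 groups only its SE was 0.26 in place of 0.60, with an adjusted p of 0.17 (limma). P634111 read 183 and 171 in GFP and 213 and 103 in LT7, with a change of -0.16 (95% interval -1.06 to 0.75). Both LT7 arrays lay below both GFP arrays at P318365 and P474538 before scaling, while after scaling they did so at P474538 alone. At P634111 the LT7 arrays lay on either side of the GFP arrays. Igf2r at P125467 read 2789 and 2516 in GFP and 3546 and 2290 in LT7. The groups overlapped, with a change of 0.20 (95% interval -0.44 to 0.85) that turned to -1.96 with scaling on the spike-in RNAs, a scaling that moved the median of all probes to -2.00. With that scaling the SE was 1.76 and the adjusted p 0.50 (limma).

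Among the binding proteins, Igfbp4, an inhibitor of IGF action, had the lowest values in LT7 relative to GFP. P257502 read 194 and 95.7 in GFP and 43.05 and 74.97 in LT7. P398971 read 92.2 and 59.4 in GFP and 11.4 and 27.2 in LT7, where only replicate 2 was well above background. At both probes the LT7 arrays lay below the GFP arrays, and at both LT7 replicate 1 was the lower. The log2 changes were -1.16 (SE 0.42, adjusted p = 0.15) and -1.97 (SE 0.48, adjusted p = 0.10), and neither passed the threshold. Without LT7 replicate 2 the change of P398971 was -2.65 with an adjusted p of 0.0498, and without LT7 replicate 1 it was -1.29, in a range of adjusted p over its alternatives from 0.0498 to 0.65.

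Igfbp6, which prefers IGF2, and Igfbp7, a related protein of low affinity for IGFs, were among the bright signals of GFP and LT7. Igfbp6 at 01442 read 18989 and 20336 in GFP and 22262 and 18244 in LT7. At P374571 it read 14164 and 15531 in GFP and 19278 and 13415 in LT7. The groups overlapped at both probes, with log2 changes of 0.13 (95% interval -0.43 to 0.70) and 0.22 (95% interval -2.40 to 2.83). The estimate of spread takes in the ST7 arrays, on which P374571 read 3.57 and 34.9. Igfbp7 at P472292 read 16838 and 17996 in GFP and 11870 and 13042 in LT7. Its LT7 arrays lay below the GFP arrays, with a change of -0.39 (95% interval -0.97 to 0.20, adjusted p = 0.37).

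Igfbp3, the main carrier of IGFs in blood, and Igfbp5 were not well above background on any array. The signal of Igfbp3 was 2.87 and 2.80 in GFP, 6.72 and 4.80 in LT7 but 2.94 and 3.26 in ST7. That of Igfbp5 at P204153 was 3.19 and 4.58 in GFP, 4.89 and 5.47 in LT7 but 10.2 and 12.6 in ST7. At P281702 it lay between 2.79 and 5.19 on the 6 arrays. The lowest signal marked as well above background on an array was between 13.5 and 22.3, so these values carry no measured level and no fold is given, although Igfbp3 met the fold rule.

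**Figure D2:**
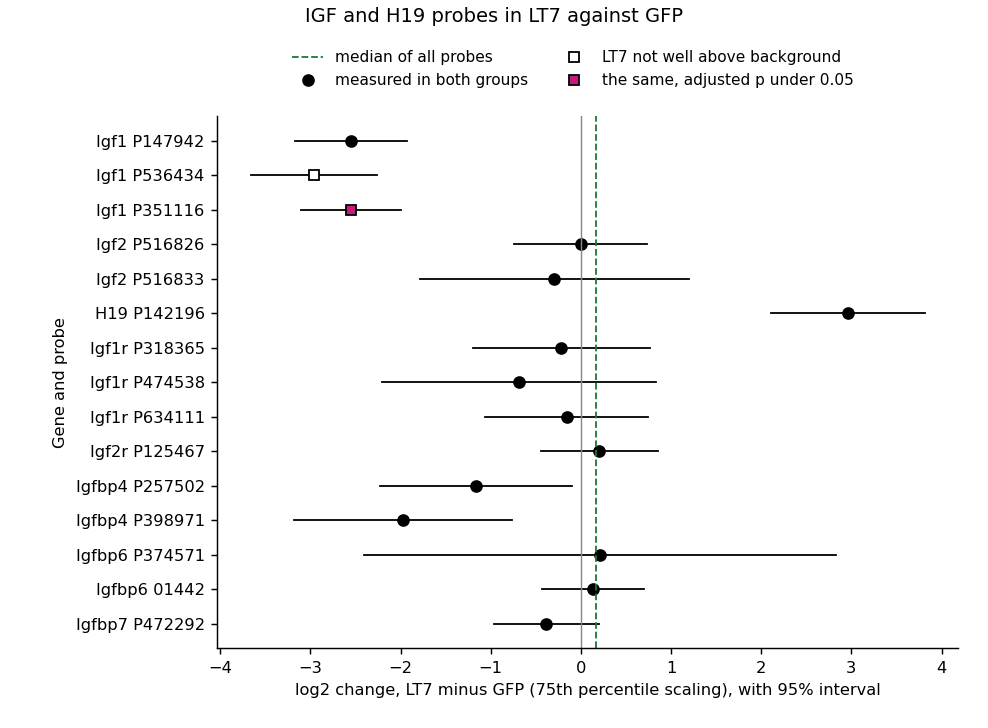
Log2 change in LT7 against GFP for each probe with a measured value or a bound, with its 95% interval, and the median of all probes as a dashed line (0.17). The 3 Igf1 probes lie between -2.96 and -2.55 and H19 P142196 at 2.96, while the intervals of the Igf2, Igf1r, Igf2r, Igfbp6 and Igfbp7 probes include 0. Igf1 P536434 and P351116 were not well above background in LT7.

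The other genes of the pathway were read at the brightest probe of each gene. Of 11 further genes for insulins, binding proteins and the proteases and inhibitors that act on binding proteins, 1 passed the test in LT7, and it was lower, while 6 had an unadjusted p under 0.05, against 27.2% of all probes. This was Stc1, stanniocalcin 1, an inhibitor of the protease PAPP-A that cleaves Igfbp4. Stc1 read 434 and 306 in GFP and 46.1 and 30.4 in LT7, which is 9.10-fold lower (log2 change -3.19, SE 0.25, adjusted p = 0.039). No gene of this list was called where probes detected on every array set the percentile, after quantile normalization, with no scaling or on spike-in RNAs. With normexp 1 was called higher and 1 lower. Pappa, which encodes the protease PAPP-A, read 1306 and 1099 in GFP and 2443 and 2359 in LT7, 2.14-fold higher with an adjusted p of 0.24. Stc2, the other stanniocalcin, changed by -0.63 and the protease Htra1 by 0.51, both with an adjusted p of 0.16. Igfbp2 read 10.3 and 17.6 in GFP but 7.46 and 4.59 in LT7, where neither array detected it, and has no fold. Only 5 of the 11 genes were measured on both arrays of a group, and the count of 6 takes in genes at background, as does the median. The median change of the 11 genes was 0.21, against 0.17 for all probes. Spike-in scaling moved the median of all probes to -2.00, but it was imprecise, with an SE of 1.76 at the Igf2r probe. The positive changes of this and the other 3 lists are therefore given only relative to the other probes.

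None of 29 receptor and signalling genes passed the test in LT7 with limma, 4 had an unadjusted p under 0.05 (27.2% of all probes), and their median change was 0.14. The highest change was that of Socs2, a feedback inhibitor of cytokine signalling, which read 118 and 84.5 in GFP and 303 and 220 in LT7, a change of 1.47 (adjusted p = 0.10). Irs1, the docking protein of the receptor, changed by 0.83 and Sos1 by 0.66. The lowest changes were those of the kinase gene Pdpk1 (-1.55, SE 0.88), Pik3r1 (-0.76) and Irs4 (-0.44).

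None of 11 genes for IGF2 mRNA-binding and imprint control passed with limma, with 2 at an unadjusted p under 0.05 (27.2% of all probes) and a median of 0.22. They ranged from Igf2bp1, an mRNA-binding protein, with -0.52, and the methyltransferase genes Dnmt3l (-0.45) and Dnmt3a (-0.34), to Igf2bp2 with 0.42 and the zinc finger gene Zfp57 with 0.68. Ctcf, whose product binds the region between H19 and Igf2, read 1512 and 1778 in GFP and 2758 and 1293 in LT7, a change of 0.30 (adjusted p = 0.71).

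None of 30 other imprinted genes passed with limma, 14 had an unadjusted p under 0.05 (27.2% of all probes), and the median change of the 30 was 0.69 against 0.17 for all probes. Only 17 of the 30 were measured on both arrays of a group. Most of the 14 were at background on all arrays, where LT7 read slightly higher than GFP. The count and the median therefore do not describe measured genes alone. Among the measured genes both directions occurred. Ndn, necdin, read 501 and 458 in GFP and 94.6 and 117 in LT7, a change of -2.09 (SE 0.25, adjusted p = 0.087). Mirg, a non-coding RNA of the Dlk1 and Meg3 cluster, changed by 1.54, the amino acid transporter gene Slc38a4 by 1.49 and Snrpn by 1.45. The changes of Mkrn3 and Ascl2 were -0.12 and -0.35.

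**Figure D3:**
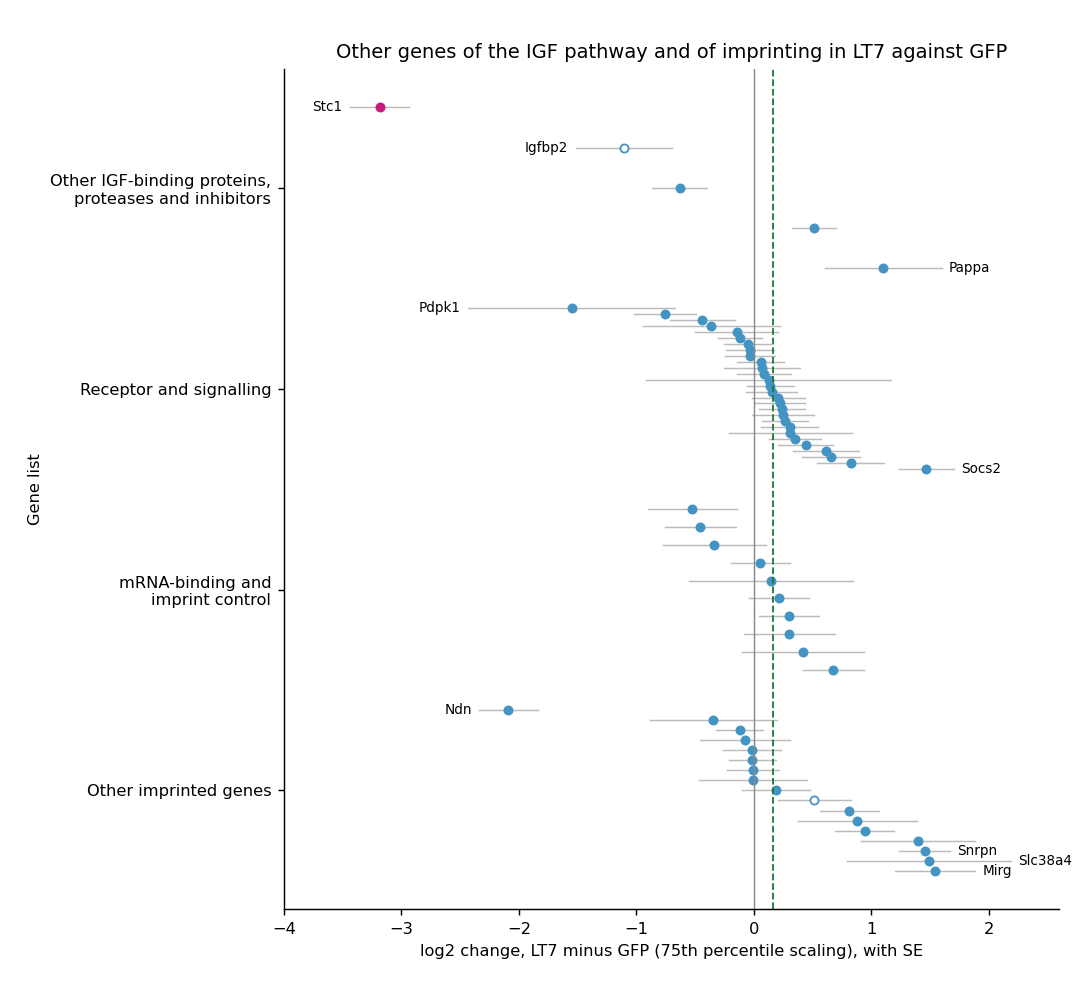
Log2 change in LT7 against GFP, with its SE, of the other genes of the IGF pathway and of imprinting that were well above background on both arrays of a group, in 4 lists. Open circles have no fold in this comparison, the dashed line is the median of all probes (0.17), and Stc1 at -3.19 is the only gene in the 4 lists past the threshold.

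Around H19 and Igf2, in the order of the mouse RefSeq annotation (GRCm38.p6), the neighbouring genes differed from one another in LT7. Their adjusted p-values there were 0.10 or more (limma). Lsp1, an actin-binding protein of leukocytes, read 334 and 279 in GFP and 1203 and 621 in LT7, 3.03-fold higher with an adjusted p of 0.10. Mrpl23, a mitochondrial ribosomal protein, read 9730 and 9726 in GFP and 10009 and 10274 in LT7, a change of 0.16. The non-coding gene Nctc1, next to H19, read 41.0 and 38.9 in GFP, 33.1 and 38.5 in LT7 but 46.3 and 44.1 in ST7, so its 6 unscaled signals lay close together. Relative to the 75th percentile it was 23.9-fold higher in ST7 than in GFP (log2 change 4.58, adjusted p = 1.7e-05), where all probes had a median of 3.72. Igf2as, the antisense transcript of Igf2, read 56.1 and 47.7 in GFP and 17.4 and 12.9 in LT7, where neither array detected it. It was at least 2.29-fold lower in LT7 with an adjusted p of 0.12, beside changes of -0.00 and -0.29 at the Igf2 probes. The Ins2 probes were at background in GFP and LT7.

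**Figure D4:**
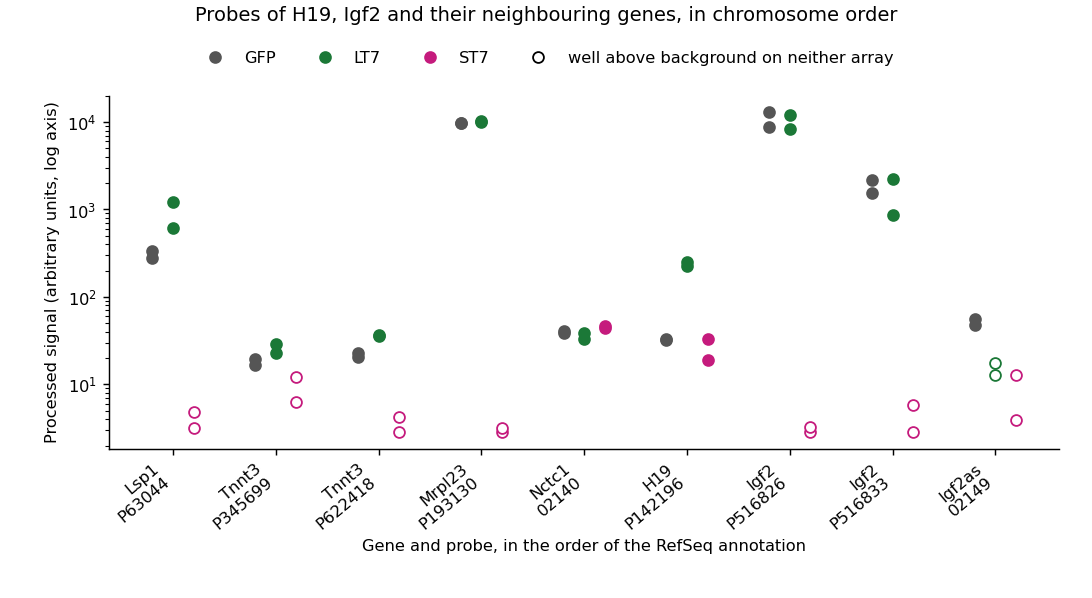
Processed signal on each array, on a log axis and not scaled between arrays, of the probes of H19, Igf2 and their neighbours detected in GFP or LT7, in chromosome order without distances. Open circles mark groups in which neither array was well above background, and H19 stands out with LT7 signals of 249 and 224 above the other arrays while Nctc1 and both Igf2 probes differ little between GFP and LT7.

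On the arrays labelled ST7 most members were at background. Of the 18 probes, 15 were well above background on both GFP arrays, 12 on both LT7 arrays and 3 on both ST7 arrays, while 14 were so on neither ST7 array. Of the 15 probes measured in GFP, 11 (73.3%) were on neither ST7 array, as were 53.0% of the 32116 probes measured in GFP. Igf2, Igf2r, Igfbp6 at 01442 and Igfbp7 went from signals of 1533 or more on each GFP array to 5.81 or less on each ST7 array. The probes still measured on both ST7 arrays were H19 P142196, Igf1r P634111 and Igfbp4 P257502. Less of an RNA per cell, fewer cells that hold it and less labelled RNA on the array cannot be told apart in these values.

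The scaling decides much of what ST7 changes look like. Limma called 17 of 18 probes in ST7 against GFP, where 90.6% of all probes were called. Of these 7 were higher and 10 lower, against 70.7% and 19.8% of all probes, and 6 of the 17 have no fold because the signals were at background or the bound did not exceed 1. With no scaling 2 were called higher and 13 lower, against 4.28% and 41.7% of all probes, and on spike-in RNAs 0 and 11, against 0.431% and 22.9%. The median change of all probes was 3.72 after the 75th percentile was subtracted, 1.78 where only the 11081 probes detected on every array set the percentile, 0.37 after quantile normalization, 2.23 with normexp, -0.68 with no scaling and -0.51 on spike-in RNAs. The median of the members was -1.29 after the 75th percentile was subtracted. Under all 6 scalings 8 of the 11 changes with a fold or bound were lower, 1 was higher and 2 turned. A bound is given only where it exceeds 1, which selects probes much brighter in GFP, so this count favours lower probes. The Igf1 probes and Igfbp4 P398971 were measured in GFP but left out of it, and all of these turned. Igf1 P147942 ranged from -6.17 to 0.15 and Igfbp4 P398971 from -4.62 to 1.22.

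The 8 lower probes included both Igf2 probes. P516826 was at least 34.5-fold lower than in GFP, with a change of -7.38 (SE 0.29, adjusted p = 1.7e-05), and P516833 was at least 5.85-fold lower (adjusted p = 0.00084). Igf2r read 2.84 and 3.35 in ST7, at least 8.53-fold lower (adjusted p = 1.7e-05). Igfbp7 read 3.003 and 3.44 in ST7, at least 56.0-fold lower (adjusted p = 1.7e-05). Igfbp6 at 01442 read 2.91 and 3.22, at least 63.3-fold lower (adjusted p = 1.7e-05). At P374571 it read 3.57 and 34.9, and the second was well above background, so that its change of -5.98 (SE 1.03, adjusted p = 0.0025) rests on arrays that differ widely.

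The 3 probes of Igf1r read in opposite directions. P318365 read 6.61 and 14.3 in ST7, against 1527 and 1550 in GFP. P474538 read 12.6 and 3.77, against 2164 and 2105 in GFP. Both were not well above background in ST7, at least 4.95-fold and 6.87-fold lower than GFP (adjusted p = 0.00084 and 0.0016). P634111 instead read 663 and 601 in ST7, above the 183 and 171 of GFP and above both LT7 arrays even without scaling. Its log2 change was 6.24 (SE 0.36, adjusted p = 2.7e-05), and between 1.84 and 6.24 over the 6 scalings, where the spike-in scaling gave an adjusted p of 0.67 in a range over all alternatives from 3.1e-06 to 0.67. Igfbp4 was split as well. P257502 was well above background on both ST7 arrays, with a mean signal of 17.3 ± 2.39 (SD, n = 2), and P398971 read 2.81 and 3.23. Of the 5394 genes with at least 2 probes measured on both GFP arrays, 1846 (34.2%) had a probe on both and another on neither ST7 array, so a split of this kind was common.

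H19 had no settled direction in ST7. The signals of P142196, 32.8 and 19.2, lay between and below the GFP values. After the 75th percentile was subtracted the log2 change of P142196 was 4.03 (SE 0.34, adjusted p = 1.2e-04), near the 3.72 of all probes. It was -0.37 with no scaling and -0.20 on spike-in RNAs. Igfbp4 at P257502 turned likewise, from 1.42 (SE 0.42, adjusted p = 0.021) to -0.52 where probes detected on every array set the percentile, -2.98 with no scaling and -2.81 on spike-in RNAs.

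**Figure D5:**
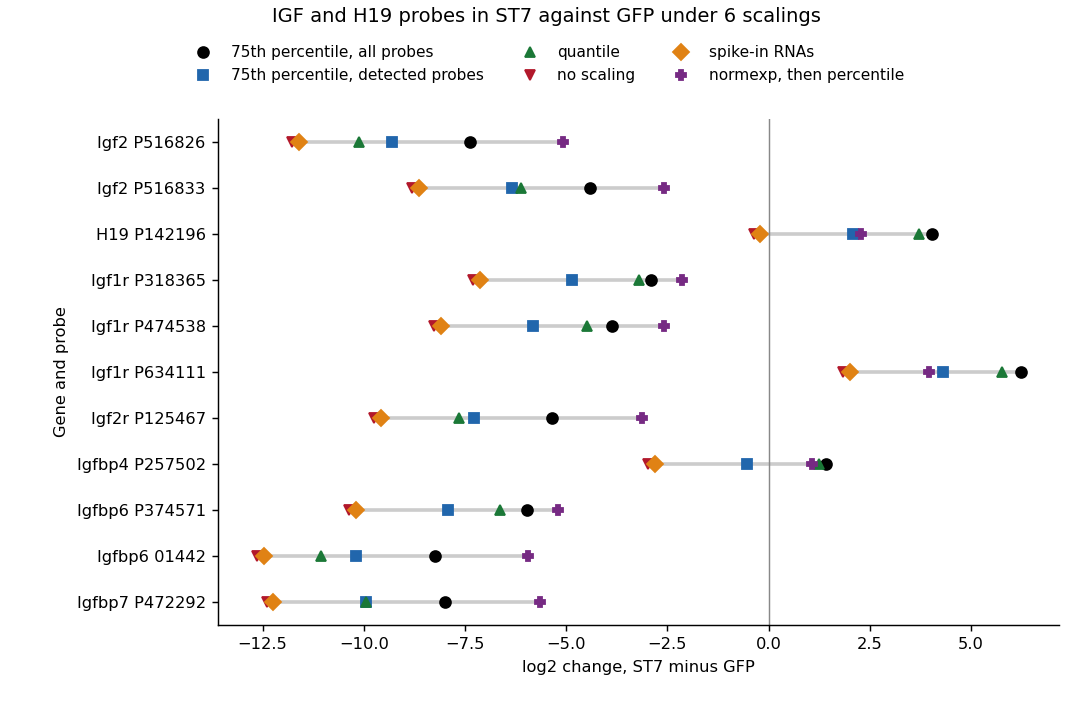
Log2 change in ST7 against GFP of the probes with a fold or a bound, under 6 ways of scaling the arrays. The Igf2, Igf2r, Igfbp6 and Igfbp7 probes and Igf1r P318365 and P474538 stay below 0, Igf1r P634111 stays above 0 (1.84 to 6.24), and H19 P142196 and Igfbp4 P257502 cross 0. The Igf1 probes and Igfbp4 P398971, which have no fold or bound and also cross 0, are not drawn.

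Of the other lists, the 29 receptor and signalling genes had 28 members measured on both GFP arrays and 15 on both ST7 arrays. Limma called 9 higher and 15 lower in ST7 against GFP, where 70.7% and 19.8% of all probes were called so. With no scaling these counts were 0 and 23 (4.28% and 41.7% of all probes) and on spike-in RNAs 0 and 18 (0.431% and 22.9%). Some kept a high signal: Grb2, an adaptor protein, read 4673 and 4551 in GFP and 5651 and 5975 in ST7, and the transcription factor gene Foxo1 796 and 627 in GFP and 1002 and 916 in ST7. Others were not well above background in ST7, such as the kinase gene Akt1, with 19284 and 17449 in GFP and 3.82 and 3.25 in ST7, and Grb10, an imprinted adaptor of the receptor, with 13056 and 13968 in GFP and 2.81 and 3.10 in ST7. Socs3, a feedback inhibitor of cytokine signalling, read 4797 and 3992 in GFP and 3.02 and 3.50 in ST7. Of the 11 imprint control genes 5 were measured on both ST7 arrays, and 5 were called higher and 5 lower, with no scaling 0 and 8, and on spike-in RNAs 0 and 5. The methyltransferase gene Dnmt1 read 3264 and 3153 in GFP and 4.28 and 3.92 in ST7, and Igf2bp3 976 and 867 in GFP and 2.93 and 13.6 in ST7. Of the 11 genes for insulins, binding proteins, proteases and inhibitors 2 were, Igfbp2 and Stc2, with 8 called higher and 3 lower, with no scaling 2 and 3, and on spike-in RNAs 0 and 3. Igfbp2 read 123 and 118 in ST7. Of the 30 imprinted genes 6 were measured on both ST7 arrays. Of the 29 with a value in ST7, all but Ascl2, 20 were called higher and 8 lower, with no scaling 2 and 12, and on spike-in RNAs 1 and 8. Snrpn read 3671 and 3985 in ST7 against 36.1 and 32.7 in GFP. Dlk1, a fetal gene of the Notch ligand family, read 39704 and 29950 in GFP, 59218 and 64728 in LT7 but 4.25 and 3.19 in ST7. Impact, a regulator of translation, read 10421 and 11412 in GFP and 2.87 and 3.11 in ST7. Kcnq1, a potassium channel gene, read 12.6 and 9.65 in GFP, not well above background, and 17.0 and 30.6 in ST7. Markers of other cell types moved alongside: 12 epithelial markers summed to 188 to 293 in GFP, 297 to 330 in LT7 and 2042 to 2230 in ST7, where Epcam, Krt18, Dsp and Cldn3 were measured on both arrays and Cdh1 on neither. The keratin gene Krt18 alone read 1881 and 1755 in ST7, and the other 11 summed to 183 to 286 in GFP and 287 to 348 in ST7. The signals of Krt8, 123 and 62.2 in GFP, and of Jup, 75.4 and 61.6 in GFP, were lower in ST7, with 15.3 and 5.82 for Krt8 and 2.96 and 3.45 for Jup. Ocln, which encodes occludin, read 3.08 and 15.1 in ST7, not well above background. In the study, E-cadherin, encoded by Cdh1, and occludin were detected in ST7 by RT-PCR and at the protein level. The cause of this difference was not tested. The 6 macrophage markers summed to 1040 to 1221 in GFP, 626 to 675 in LT7 and 30.0 to 34.9 in ST7, and Ptprc, Emr1 and Lyz2 were at background in all groups. Cd14 read 967 and 852 in GFP and 313 and 343 in LT7, while the other 5 summed to 188 to 254 in GFP and 283 to 362 in LT7, and Cd68 read 113 and 68.4 in GFP and 215 and 188 in LT7. Their part in the results was not tested.

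Between the libraries labelled LT7 and ST7, limma called all 18 probes in ST7 against LT7, where 90.7% of all probes were called. Of the 18, 10 were higher and 8 lower, against 71.0% and 19.7% of all probes. Among those called higher, 7 have no fold, with ST7 at background on both arrays. Igf1 P147942 is 1 of them, with unscaled signals of 2.86 and 3.14 in ST7 against 30.0 and 39.5 in LT7. With no scaling 2 were called higher and 16 lower, against 5.17% and 54.1% of all probes. On spike-in RNAs these counts were 0 and 8, against 1.40% and 13.0%. The 2 comparisons with GFP share the GFP arrays, so their values are set side by side only. Igf2 P516826 changed by -0.00 in LT7 and -7.38 in ST7, Igfbp6 01442 by 0.13 and -8.25, and Igfbp7 by -0.39 and -8.00. Igf1r P634111 changed by -0.16 and 6.24. H19 P142196 had signals of 249 and 224 in LT7 and of 32.8 and 19.2 in ST7, yet relative to the 75th percentile ST7 was 1.06 above LT7 (SE 0.34, adjusted p = 0.026). With no scaling the same comparison gave -3.24.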

How the data were processed

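Total RNA of 6 cultures was labelled with Cy3 and hybridized to 1-colour Agilent arrays of a custom mouse design. The deposited intensity values are scanner output of Agilent Feature Extraction (version 10.5.1.1 per the file headers), and gProcessedSignal was used, from which the authors' software had subtracted the background. The series matrix deposited by the authors holds log2 values after a percentile shift and served as an alternative. Spots marked as outliers (19 to 141 per array) and control spots were left out, repeated spots were averaged, and log2 signals were taken relative to the array's own 75th percentile. Groups were compared with limma 3.58.1 (R 4.3.3) on all 6 arrays, two-sided, with Benjamini-Hochberg adjustment, and the fit was tested on simulated data. The number of arrays limits the precision.

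A probe well above background on no array of a group gives a bound only. The brighter group's mean was set against, on each array of the other group, the higher of the probe's value and the lowest value among probes well above background. Values measured in part of a group's arrays use both arrays. Alternatives were normexp, other scalings (4 spike-in RNAs among them), a filter on dim probes, 2 groups only, a replicate block and leaving out each array. The members, the 4 lists of other genes and the marker lists were chosen with earlier results of these data known. All member probes were named, and a further probe outside them is not reported here. Of the other lists a gene was named if its brightest probe was measured on both arrays of a group and was among the 3 highest or lowest changes of its whole list, unmeasured genes included, in LT7 or ST7. Marker genes were named after their values were seen.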

Additional observations from a re-analysis of the deposited data

Results flagged for a closer look

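The effects in the libraries labelled LT7 and ST7, against the same GFP arrays, differed at the following probes, by the contrast of ST7 with LT7 in limma over all probes, where 90.7% of all probes passed. The difference of the log2 changes, ST7 minus LT7, was -7.37 and -4.12 at the Igf2 probes P516826 and P516833, -5.55 for Igf2r and -7.62 for Igfbp7. For Igfbp6 it was -6.19 at P374571 and -8.38 at 01442. For Igf1r it was -2.69 at P318365, -3.19 at P474538 and 6.39 at P634111. It was 1.06 for H19 P142196 and 2.58 for Igfbp4 P257502, and both of these turned in sign under another scaling. On the arrays labelled ST7 the Sirt7 probes and most fibroblast markers were at background as well, and their part in these differences was not tested.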

How the results depend on the processing

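In LT7 against GFP 1 of the 18 probes was called. With normexp it was 3, with dim probes left out 4, and with the fold rule 6. It was 0 where probes detected on every array set the percentile, after quantile normalization, with no scaling, on spike-in RNAs and with 2 groups only. With the replicate block it was 0 as well, and over all probes the count went from 108 to 0. The arrays share only a number (correlations of same-numbered deviations 0.08, 0.04 and -0.02 over all probes, 0.086, 0.33 and -0.030 over probes detected on every array), and the block changed no other count of called members. Leaving out 1 array gave 0 to 3, and 0 of all probes were called without either GFP array. In ST7 against GFP 17 probes were called, 11 on spike-in RNAs and 15 to 17 with an array left out. In ST7 against LT7 18 were called, 8 on spike-in RNAs and 16 to 18 with an array left out.

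Some changes turned in sign. In LT7 against GFP, spike-in scaling gave -1.96 for Igf2r, -1.95 for Igfbp6 P374571 and -2.03 for Igfbp6 01442, each with an SE of 1.76. With an array left out, Igf2 P516826 ranged from -0.31 to 0.31, Igf2 P516833 from -1.04 to 0.46, Igf1r P634111 from -0.63 to 0.32, Igf2r from -0.060 to 0.47 and Igfbp6 01442 from -0.038 to 0.31. In ST7 against GFP, H19 P142196 was -0.37 with no scaling and -0.20 on spike-in RNAs. Igfbp4 P257502 was -0.52 where probes detected on every array set the percentile, -2.98 with no scaling and -2.81 on spike-in RNAs. In ST7 against LT7, H19 was -0.86, -3.24 and -0.996 under the same 3 scalings, and Igfbp4 P257502 was -1.72 with no scaling. The cause was not tested. The 1 member change called in LT7 lost its call in 12 of 15 alternatives, and 8 reruns of the others passed the threshold. In ST7 14 of the 18 probes were not well above background on either array, which leaves a bound or no fold.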

Other observations

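Over the 6 arrays, the genes most like Igf1 P147942 in their scaled values were Rerg (Pearson r 0.995), Hp (0.992) and Ass1 (0.990). Hp, the plasma protein haptoglobin, read 1745 and 1039 in GFP and 11.8 and 15.0 in LT7. On the ST7 arrays Rerg, Hp, Ass1 and Igf1 P147942 itself were all at background. Those most like H19 P142196 were Nsdhl (0.991), Emilin2 (0.989) and Epyc (0.987). Epyc was at background outside LT7, with 2.76 and 2.70 in GFP and 2.83 and 3.20 in ST7. Those most like Igf2 P516826 were Emb, Unc119b and Snx30 (each 1.00), all at background in ST7. Probes at background in ST7 take nearly the same scaled value there, so part of r is set by the background. The r values are descriptions over 6 arrays in 3 groups, searched over 17726 probes that share the same arrays and scaling.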
